A study of Mus musculus with 12 samples.

Results

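The proteasome is the protease that degrades ubiquitin-tagged proteins in the nucleus and cytosol, and the genes described here encode its constitutive subunits. The members were all genes of the normalised count table whose symbol is Psma, Psmb, Psmc or Psmd followed by a number, without the inducible or tissue-restricted beta subunits Psmb8, Psmb9, Psmb10 and Psmb11. This rule took 35 of 35976 genes, of which 15 are counted by symbol with the 20S core and 20 with the 19S regulatory particle, and it used no measured value. The 19S genes include the assembly chaperones Psmd5, Psmd9 and Psmd10, and the 20S genes include Psma8, an alpha subunit known from testis. RNA-seq of mouse embryonic stem cells (mESCs) gave 12 libraries in 6 groups of 2. The cells carried floxed alleles of Tet2 (TET2 fl/fl) in every group and were grown without feeders on gelatin in serum with LIF and 2i, the inhibitors CHIR99021 of GSK3 and PD0325901 of MEK. The PROSER1 KO+Rescue cells were PROSER1 KO cells that re-expressed FLAG-tagged Proser1 from a PiggyBac vector after blasticidin selection and subcloning. The PROSER1 KO cells were 1 single-cell clone made with a CRISPR guide to exon 1 of Proser1, which encodes a partner of the TET enzymes, and the third genotype was wildtype (WT). Each genotype was sampled after 48 h in N2B27, a serum-free medium (day 2), and in the mESC state. Since each edited genotype was 1 clonal line, genotype and clone cannot be told apart. The labels call the 2 libraries of each group biological replicates, and p-values measure the spread between these libraries.

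The 20S core is a barrel of stacked rings. The outer rings, made of the alpha subunits (Psma), form the gate. The inner rings, made of the beta subunits (Psmb), hold the active sites, of which PSMB5 has chymotrypsin-like, PSMB6 caspase-like and PSMB7 trypsin-like activity. The 19S particle recognises ubiquitin chains, removes them and unfolds the substrate: its base holds the ATPases (Psmc) and the large scaffold subunits, and its lid holds PSMD14, the deubiquitinase that cuts chains off the substrate. Proteasome genes are known to be transcribed in a coordinated way, in mammals through NFE2L1 and antioxidant response elements, and high proteasome activity is known from human embryonic stem cells.

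The libraries held 38634668 to 66450803 read pairs assigned to genes. Proser1 had 3041 and 2994 normalised counts in KO+Rescue, 872 and 1067 in KO and 829 and 685 in WT cells at day 2. In mESCs it had 2828 and 3089.8 in KO+Rescue, 576 and 502 in KO and 889 and 550.5 in WT cells. Counts over the whole gene do not read a small edit in exon 1, so the KO against WT values check nothing, while both KO+Rescue groups were high. The 8 pluripotency markers (Pou5f1, Sox2, Nanog and others) summed to 66212 to 122364 normalised counts at day 2 and to 230228 to 335807 in mESCs. The 6 markers of cells leaving pluripotency (Dnmt3b, Fgf5, Otx2 and others) summed to 56916 to 94985 at day 2 and 7583 to 12401 in mESCs. Most of this sum was Dnmt3b, with 44463 to 72055 at day 2 and 6995 to 11752 in mESCs. Fgf5 had 1449 to 5641 and Otx2 2701 to 4174 at day 2. The 5 fibroblast markers summed to 555 to 1257 at day 2 and 123 to 447 in mESCs, mostly from Thy1, with Col3a1 at 0.939 to 10.9 at day 2 and 1.19 to 2.70 in mESCs. The 5 primitive endoderm markers summed to 45.6 to 114 at day 2 and 40.7 to 79.4 in mESCs. The 5 trophoblast markers summed to 277 to 436 at day 2 and 2047 to 2714 in mESCs. Tfap2c held most of the mESC sum, with 1880 to 2612 there and 39.9 to 167 at day 2. Krt7 went the other way and held most of the day 2 sum, with 194 to 277 at day 2 and 23.7 to 37.0 in mESCs. The 3 blood markers summed to at most 14.96. The part of these cell states in the stage results below was not tested. Genes of 72 cytosolic ribosomal proteins took 11.05% of the reads in WT day 2 replicate A, the lowest share, and 21.4% in KO+Rescue mESC replicate B, the highest. These same libraries had the lowest and the highest share of reads for the proteasome subunits together, 1.19% and 1.76%. In such bulk samples, fewer cells of a type and less RNA per cell cannot be told apart.

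All 35 subunits were expressed in all 12 libraries, and all passed the filter of a mean normalised count of at least 10. Levels per kilobase of coding sequence, averaged over the libraries, were highest for Psma5 at 59410, the catalytic Psmb6 at 56807 and Psma7 at 54770 normalised counts. The lowest were Psma8, which encodes an alpha subunit known from testis, at 1407, and the assembly chaperones Psmd5 at 3249 and Psmd9 at 4369. On this scale the median level was 34866 for the 20S genes and 13705 for the 19S genes. By role, the 7 subunits of the alpha ring had a median of 54087, the 3 catalytic beta subunits 34866, the 6 ATPases 17943, the 8 lid subunits 12857 and the 3 chaperones 4369. Of the catalytic genes Psmb5 was the lowest, at 12971. The order depended on the length used. Per kilobase of the whole transcript the medians were 12198 for 20S genes and 9403 for 19S genes, and Psma7 was the highest at 43166, while Psma8 stayed the lowest at 615. Psma7 had 42890.5 and 48073 normalised counts in KO+Rescue, 33909 and 36030.3 in KO and 22897 and 36847 in WT cells at day 2, and 46475 and 74118 in KO+Rescue, 41046 and 49871 in KO and 22412 and 34421 in WT mESCs. It was called in no stage comparison. The ranges over libraries of neighbours in this order overlapped widely, as for the 5 highest genes. Of the 35 genes, 9 overlap another annotated RefSeq gene (Psma3, Psma4, Psma6, Psmb5, Psmb7, Psmc5, Psmd1, Psmd10 and Psmd13), and the strand setting of the read counting is not given in the sources used here.

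**Figure D1:**
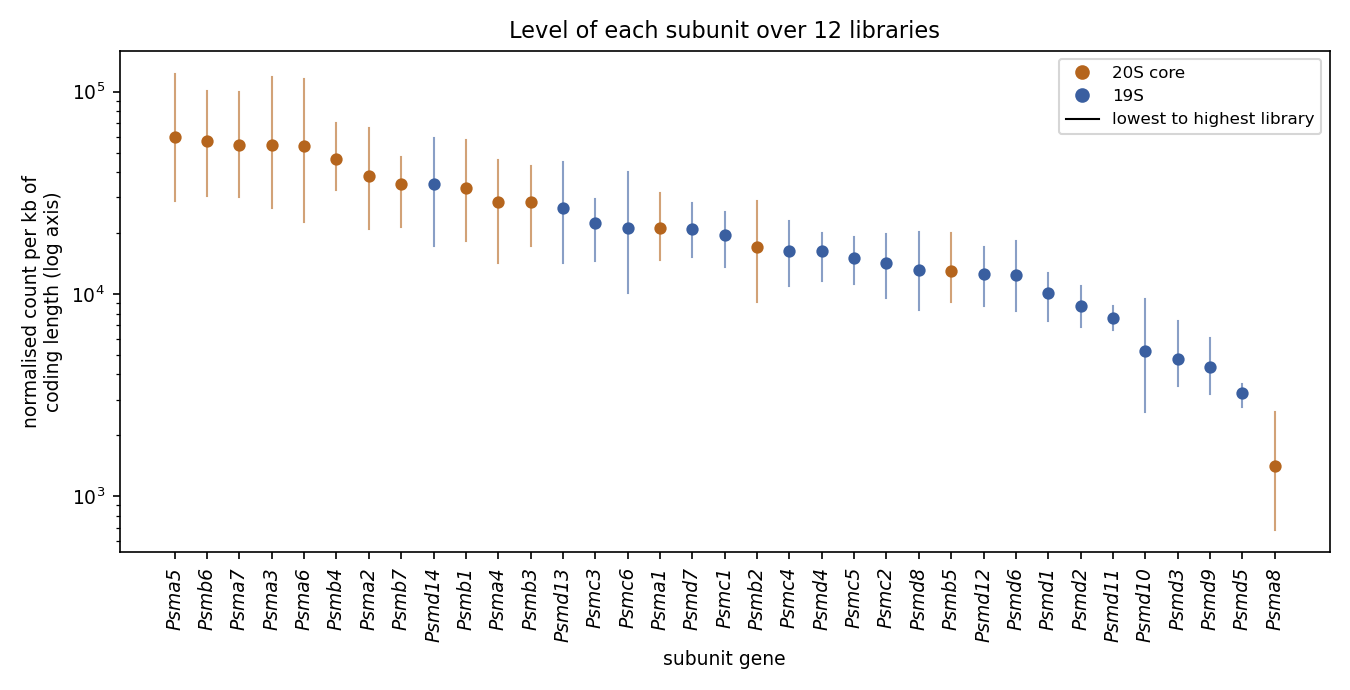
Normalised count per kilobase of coding sequence (log axis) for each of the 35 subunit genes. Points are means over 12 libraries and lines run from the lowest to the highest library. The 20S genes (orange) fill the left end and the 19S genes (blue) most of the right end, with Psma8 last at 1407.

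**Figure D2:**
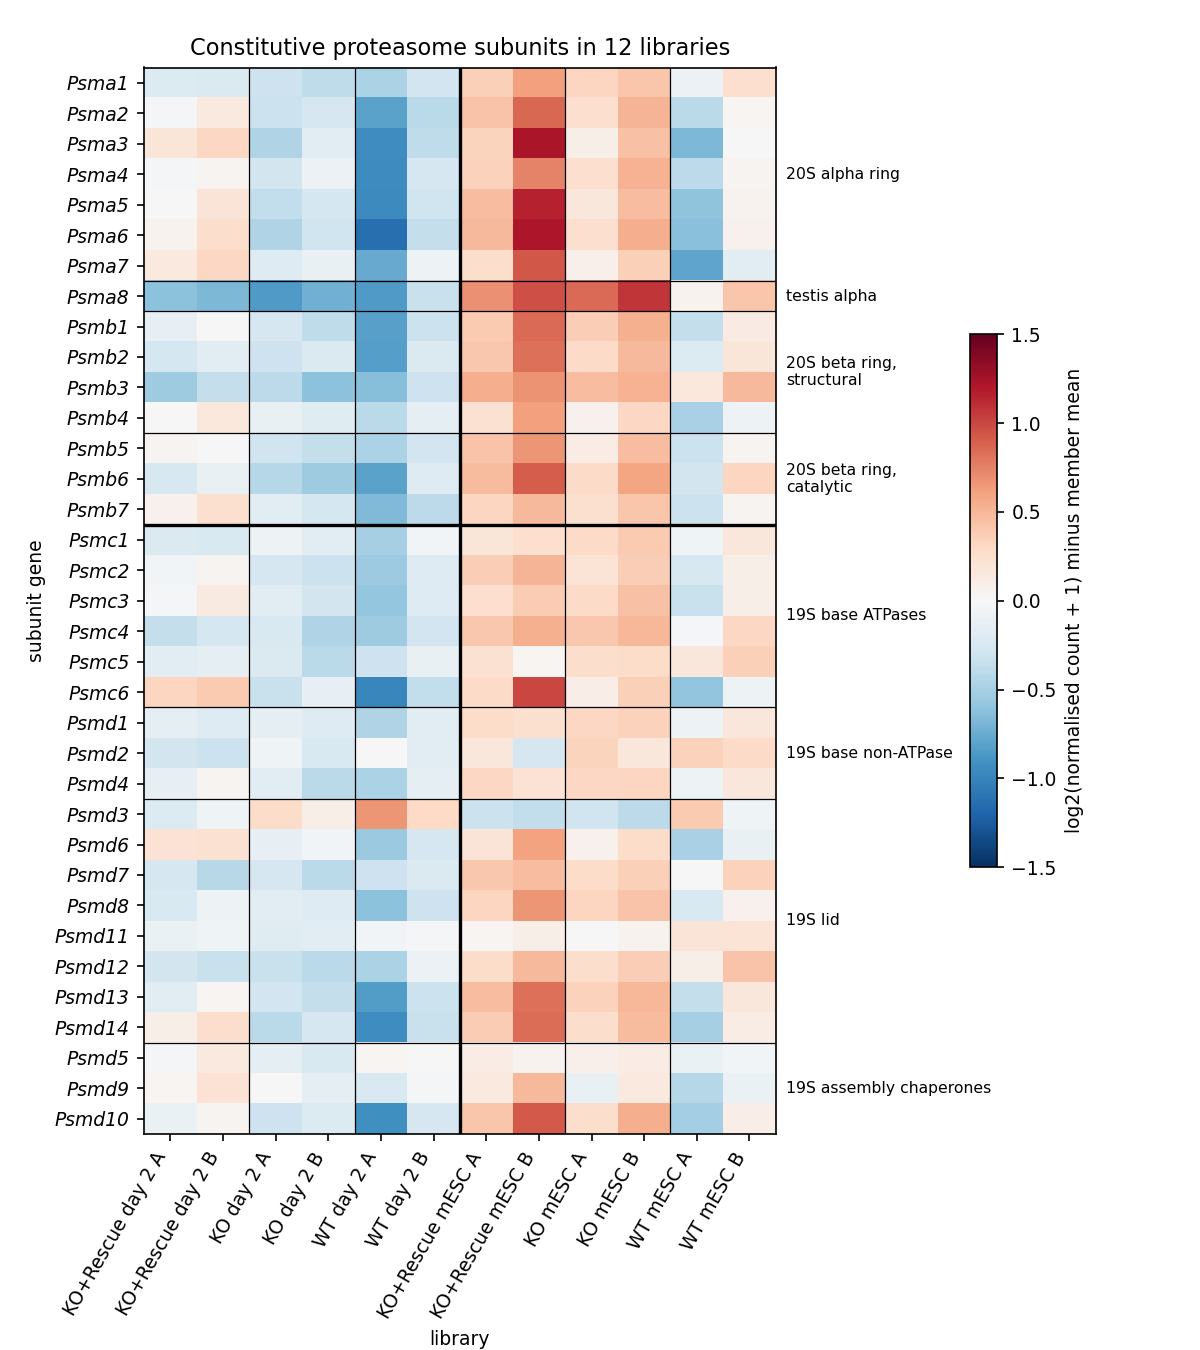
Log2 of the normalised count plus 1 of each subunit, as the difference from its own mean over the 12 libraries (colour, scale from -1.5 to 1.5). Columns are libraries and rows are genes grouped by role. Day 2 columns are mostly blue, mESC columns of the KO+Rescue and KO lines mostly red, and Psmd3 runs the other way.

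Whether subunit levels differed between day 2 in N2B27 and the mESC state was tested in each genotype. The medium changed together with the cell state, so the 2 cannot be told apart. Many subunit mRNAs were lower at day 2, in the 20S core and in the 19S particle. In KO cells 25 of the 35 genes were lower and 1 was higher (limma on log2 of the normalised count plus 1, adjusted p under 0.05 by Benjamini-Hochberg over 15341 genes, here "called"), where 28.7% of all genes tested were lower and 31.4% higher. In KO+Rescue cells 18 were lower and none higher, where 29.1% and 29.2% of all genes were. In WT cells 8 were lower and none higher, where 25.3% and 26.6% of all genes were. In this fit, which took no pairing of libraries, the share of subunits lower in WT cells was near that of all genes. The direction was shared more widely than the calls, since 34 of 35 subunits in KO+Rescue cells, 34 in KO cells and 30 in WT cells had a negative log2 change. Median changes were -0.69 for 20S and -0.36 for 19S genes in KO+Rescue cells, -0.65 and -0.56 in KO cells, and -0.42 and -0.35 in WT cells, while the median over all genes tested lay between -0.03 and 0.02 in the 3 genotypes.

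The genes called lower at day 2 in every genotype were 7, with changes of -0.43 to -1.75 on the log2 scale: Psma1 of the alpha ring, Psma8, the structural beta subunits Psmb2 and Psmb3, the ATPase gene Psmc4, and the lid genes Psmd7 and Psmd12. All 8 genes called in WT cells were among the 25 of KO cells, where they made up 32.0%, and 7 of them among the 18 of KO+Rescue cells. KO and KO+Rescue cells shared 17, which were 68.0% of the KO list and 94.4% of the KO+Rescue list. For 4 of the 7 genes the promoter window, 250 bases before and 50 after the RefSeq start site (build GRCm38.p6), stands in the reference table. These 4 windows are shown because their genes carried the change at day 2 in each genotype. Capitals mark matches to the motifs searched, described further on.
Psma1, chr7:114276067-114276366, minus strand: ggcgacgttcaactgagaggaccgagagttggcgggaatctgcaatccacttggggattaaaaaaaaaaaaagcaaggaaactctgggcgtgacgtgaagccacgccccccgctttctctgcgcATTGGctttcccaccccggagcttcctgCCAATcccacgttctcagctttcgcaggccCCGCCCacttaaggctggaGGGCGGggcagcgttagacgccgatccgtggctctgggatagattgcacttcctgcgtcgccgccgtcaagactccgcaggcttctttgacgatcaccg
Psmb3, chr11:97703184-97703483, plus strand: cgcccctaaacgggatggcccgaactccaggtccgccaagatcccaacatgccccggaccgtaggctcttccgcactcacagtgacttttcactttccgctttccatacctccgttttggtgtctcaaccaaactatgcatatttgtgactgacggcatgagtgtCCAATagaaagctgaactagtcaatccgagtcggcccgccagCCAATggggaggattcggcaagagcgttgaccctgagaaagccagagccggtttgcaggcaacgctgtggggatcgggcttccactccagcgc
Psmc4, chr7:28050043-28050342, minus strand: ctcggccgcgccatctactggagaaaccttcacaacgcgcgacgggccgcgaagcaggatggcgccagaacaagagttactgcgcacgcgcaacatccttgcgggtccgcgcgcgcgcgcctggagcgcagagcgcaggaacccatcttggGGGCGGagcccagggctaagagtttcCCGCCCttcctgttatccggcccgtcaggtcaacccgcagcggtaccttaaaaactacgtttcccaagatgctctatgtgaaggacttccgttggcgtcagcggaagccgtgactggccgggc
Psmd12, chr11:107479278-107479577, plus strand: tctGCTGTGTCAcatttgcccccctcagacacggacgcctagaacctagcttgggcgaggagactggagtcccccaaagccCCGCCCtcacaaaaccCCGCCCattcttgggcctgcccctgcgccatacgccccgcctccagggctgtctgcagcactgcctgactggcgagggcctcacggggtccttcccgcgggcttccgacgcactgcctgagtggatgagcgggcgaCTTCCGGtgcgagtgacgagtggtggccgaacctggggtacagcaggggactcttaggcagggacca

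Of the subunits, Psma8 changed most with stage in each genotype. It had 604 and 581 normalised counts in KO+Rescue cells at day 2, against 1493 and 1818 in KO+Rescue mESCs. In KO cells it had 513 and 562 at day 2 and 1678 and 1959 in mESCs. In WT cells it had 516 and 736 at day 2 and 963 and 1235 in mESCs. The libraries of the 2 stages did not overlap in any genotype. The log2 changes were -1.47 in KO+Rescue cells (limma adjusted p = 1.92e-05), -1.75 in KO cells (adjusted p = 3.88e-06) and -0.82 in WT cells (adjusted p = 0.00234), each with an SE of 0.18.

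Psmb3, a structural subunit of the beta ring (chr11:97703434-97713500, GRCm38.p6), followed. It had 11371 and 12877 normalised counts in KO+Rescue cells at day 2, against 23990.2 and 26287 in the mESCs. In KO cells the values were 12577 and 10782 at day 2 and 22739 and 23723 in mESCs. In WT cells they were 10556 and 13236 at day 2 and 18453 and 23027 in mESCs. Every day 2 library lay below every mESC library. The changes of -1.05, -0.996 and -0.80 in KO+Rescue, KO and WT cells had limma adjusted p-values of 9.1e-05, 0.000139 and 0.000929, and held under each alternative processing tried, as did those of Psma8.

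Psmc4, one of the 6 ATPases that unfold substrates (chr7:28041702-28050092), had 15525 and 16579.6 normalised counts in KO+Rescue cells at day 2, against 26274 and 28676 in mESCs. The KO values were 16872 and 14493 at day 2 and 26159 and 27899 in mESCs, and the WT values 13649.7 and 16263 at day 2 and 19619 and 24552 in mESCs. Again no day 2 library reached an mESC library. The log2 changes were -0.77, -0.79 and -0.56 (SE 0.15), with limma adjusted p-values of 0.000786, 0.000667 and 0.00796, of which the WT call was lost in 4 of 18 alternatives. Psma1 (chr7:114264550-114276116) had 14019.9 and 13926 at day 2 and 20809 and 24847 in mESCs of the KO+Rescue line. In KO cells the gene had 13033 and 12491 at day 2 and 20299 and 21636 in mESCs, and in WT cells 11634 and 13317 at day 2 and 15213 and 19315 in mESCs. Psmd12, a scaffold subunit of the lid (chr11:107479528-107498036), had 13809.9 and 13237 at day 2 and 20118 and 23401 in mESCs of the KO+Rescue line. In KO cells the gene had 13219.6 and 12590.0 at day 2 and 19959 and 21619 in mESCs, and in WT cells 11975 and 15738 at day 2 and 17669 and 22436 in mESCs. For both genes the stages separated in every genotype. Psmb2, a structural beta subunit gene, changed by -0.83, -0.65 and -0.51 in KO+Rescue, KO and WT cells, and the lid gene Psmd7 by -0.77, -0.65 and -0.43.

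Psmd3, which encodes a lid subunit (chr11:98682554-98695978), ran against the other members. It had 6406 and 7063 normalised counts at day 2 and 5913 and 5727 in mESCs of the KO+Rescue line. In KO cells it had 8907 and 7819.9 at day 2 and 5983 and 5597 in mESCs. In WT cells it had 11673 and 9104 at day 2 and 9669.8 and 7047 in mESCs, where the stages overlapped. Only in KO cells was the rise called (0.53 ± 0.16 (SE) on the log2 scale, limma adjusted p = 0.0134), and it was 0.09 with an adjusted p of 0.505 after adjustment for GC content. The changes of 0.21 in KO+Rescue and 0.32 in WT cells were not called, and no interaction with stage was called for it.

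By role, the calls at day 2 in KO cells covered 4 of 7 alpha ring subunits, 3 of 4 structural and 3 of 3 catalytic beta subunits, 5 of 6 ATPases and 3 of 3 other base subunits (Psmd1, Psmd2 and the ubiquitin receptor gene Psmd4). Of 8 lid genes 5 were lower and Psmd3 higher, and of the 3 assembly chaperones Psmd10 was lower while Psmd5 and Psmd9 were not called. In KO+Rescue cells 3 of 7, 3 of 4, 2 of 3, 3 of 6, 1 of 3, 4 of 8 and 1 of 3 genes of these roles were lower. In WT cells they were 1 of 7, 2 of 4, 0 of 3, 2 of 6, 0 of 3, 2 of 8 and 0 of 3. The remaining lower genes were in each case Psma8. Both day 2 libraries lay below both mESC libraries for 29 of 35 genes in KO+Rescue cells, where 41.5% of all genes did, for 33 in KO cells (41.8% of all genes) and for 14 in WT cells (34.7%), so that the share in WT cells was near that of all genes.

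With a replicate block 26 subunits were called in WT cells, Psmd3 higher and the others lower. The share of all genes called in that fit is not given here. The letters A and B were not taken to pair the samples, as the last section says. The WT count of the main fit rested on few libraries. It was 2 of 35 without WT day 2 replicate A and also 2 without WT mESC replicate B (Psmb3 and Psma8), 20 without WT mESC replicate A and 23 without WT day 2 replicate B. In KO+Rescue cells it was 8 without mESC replicate B or day 2 replicate A and 11 without day 2 replicate B, and in KO cells 8 without mESC replicate B, 13 without day 2 replicate B and 17 without day 2 replicate A. Scaling the libraries to equal totals, in place of the authors' size factors, moved the median over all genes by 0.23 to 0.37 in these 3 comparisons and left 1 subunit higher and 7 lower in KO+Rescue cells, 1 and 8 in KO cells, and 2 (Psmd3 and Psmd9) and 2 in WT cells. Relative to the median of all genes, the median subunit changed by -0.50, -0.60 and -0.36 under both scalings. A scaling shifts all genes of a library alike, so this agreement was fixed in advance and tests nothing. The direction of the median 19S gene in KO+Rescue cells flipped with equal totals, to 0.01. The medians moved with single libraries too. The 20S median in KO+Rescue cells was -0.37 without mESC replicate B. In WT cells the 20S median was -0.20 without mESC replicate B, -0.21 without day 2 replicate A, -0.65 without mESC replicate A and -0.67 without day 2 replicate B, and the 19S median was -0.16 without day 2 replicate A and -0.22 without mESC replicate B.

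**Figure D3:**
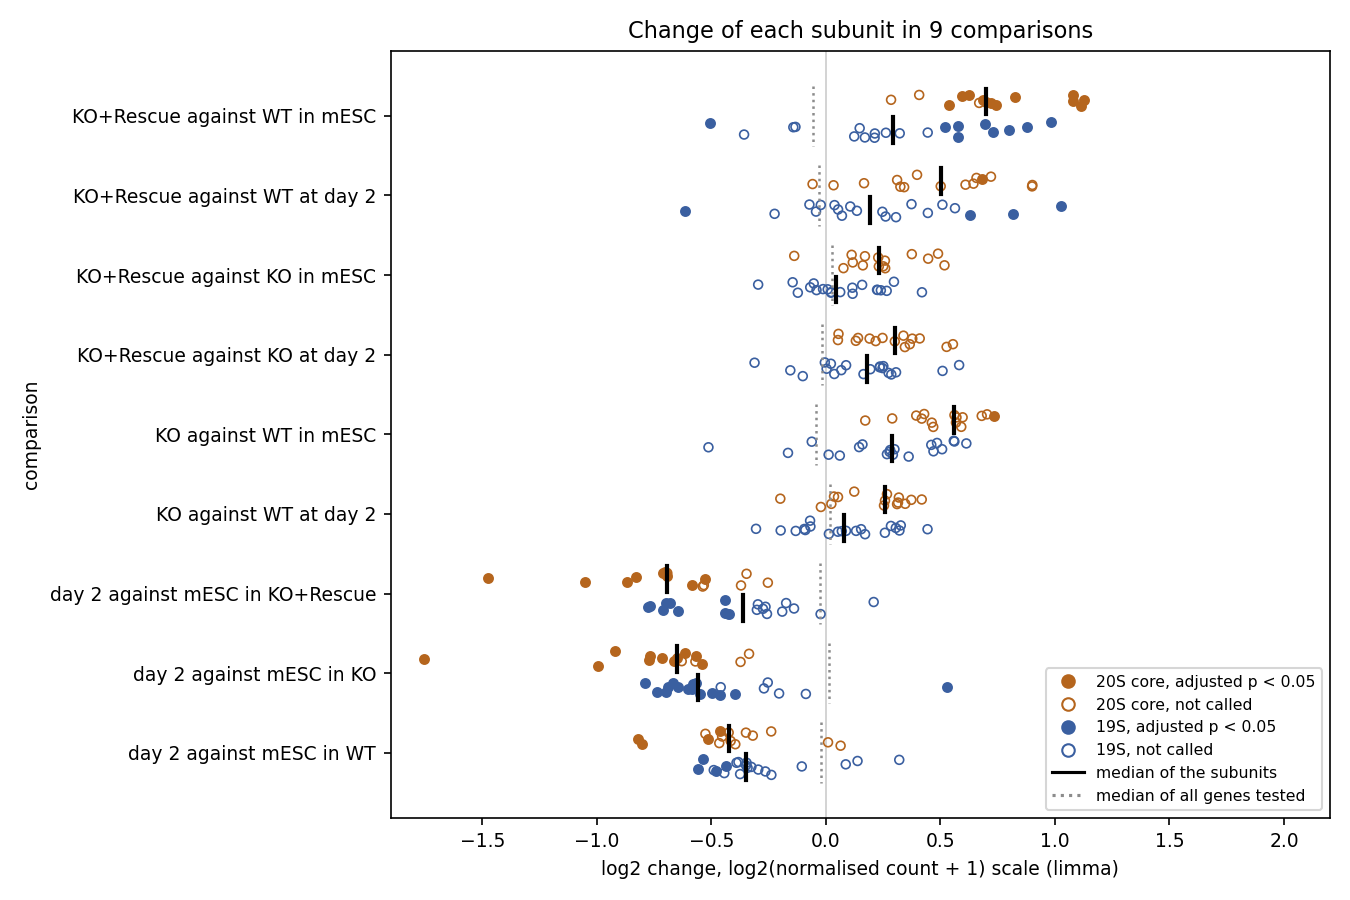
Log2 change of each subunit in 9 comparisons (x axis, log2 of the normalised count plus 1). Filled points were called by limma, black bars mark the median of the 20S (orange) or 19S (blue) genes and dotted bars that of all genes tested. In the 3 stage comparisons at the bottom, nearly all points lie left of 0, with Psma8 farthest out at -1.75 in KO cells, and in the 6 genotype comparisons the 20S median lies right of the 19S median. The 20S genes have shorter coding sequences (median 744 bases) than the 19S genes (median 1236).

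The catalytic subunits differed among themselves. Psmb6 (chr11:70525324-70527858) had 32373 and 35330.1 normalised counts at day 2 and 53128 and 71892 in mESCs of the KO+Rescue line. In KO cells it had 28440.3 and 26489 at day 2 and 46654 and 57832 in mESCs, and in WT cells 21835 and 33362 at day 2 and 31584 and 47802 in mESCs. The stages separated in the KO+Rescue and KO lines and overlapped in WT cells, with log2 changes of -0.87, -0.92 and -0.53 and limma adjusted p-values of 0.00737, 0.0051 and 0.0823. The KO+Rescue call was lost in 2 of 17 alternatives and the KO call in 1. Psmb5 (chr14:54614120-54617995) had 10244 and 9931 at day 2 and 13378 and 15799.9 in mESCs of the KO+Rescue line. In KO cells it had 8103 and 7781 at day 2 and 10722 and 13786 in mESCs, and in WT cells 7197 and 8137 at day 2 and 7969.8 and 10226 in mESCs. Its changes were -0.53 and -0.61 in the KO+Rescue and KO lines, both called, and -0.24 in WT cells, not called.

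Psmb7 (chr2:38588046-38643952) was the catalytic gene with the widest gap between genotypes at day 2. It had 29457 and 33233 normalised counts in KO+Rescue cells, 25062 and 23501 in KO cells and 17765 and 21416 in WT cells at day 2, and 35105 and 39603 in KO+Rescue, 33221 and 37614 in KO and 22603 and 29108 in WT mESCs. At day 2 no KO+Rescue library overlapped a KO library and no KO library a WT library. KO+Rescue exceeded WT cells at day 2 by 0.68 ± 0.16 (SE) on the log2 scale (1.6-fold, limma adjusted p = 0.021), while the KO against WT difference of 0.32 was not called (limma adjusted p = 0.338). With stage it fell by 0.54 in KO cells (limma adjusted p = 0.0123), and the changes of -0.25 in KO+Rescue and -0.40 in WT cells were not called.

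**Figure D4:**
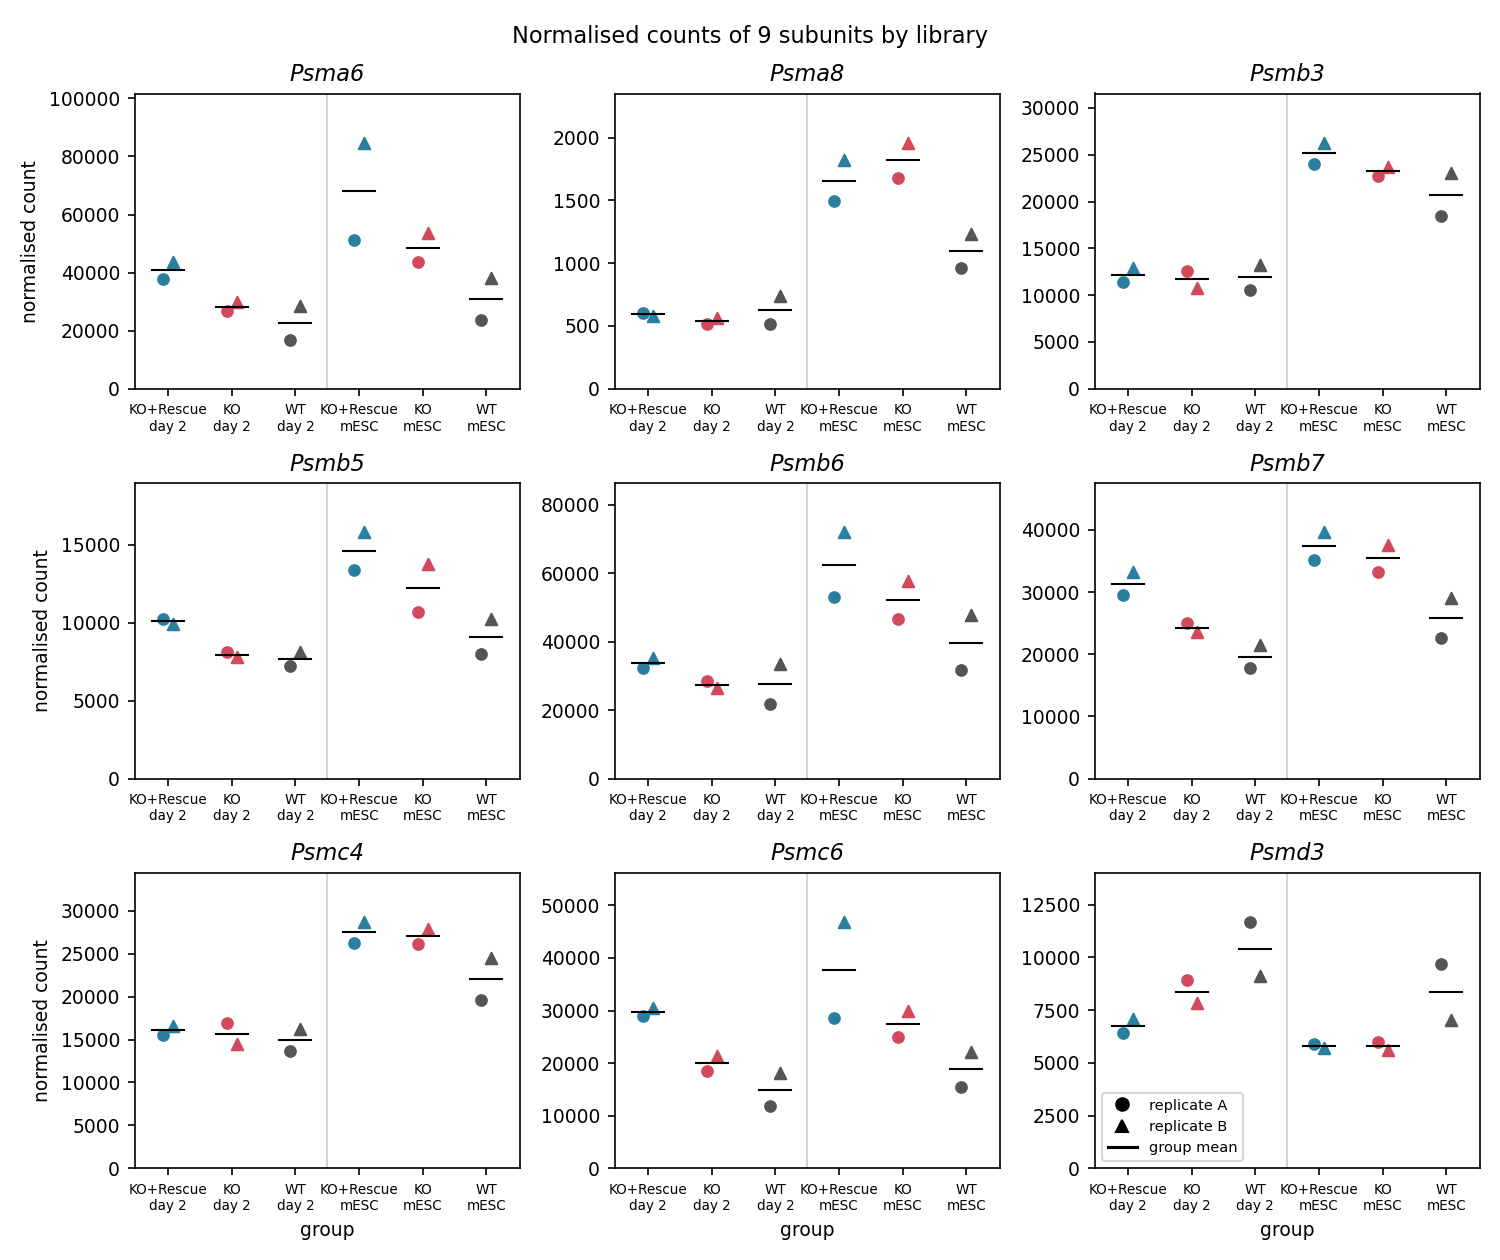
Normalised counts (y axis from 0) of 9 subunits in each library, by group (x axis). Circles are A libraries, triangles are B libraries and horizontal bars are means of the 2. Psma8 and Psmb3 separate the stages, Psmb7 and Psmc6 run down across KO+Rescue, KO and WT at day 2, and Psmd3 is highest in WT cells.

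Loss of PROSER1 was tested by comparing KO with WT cells. In mESCs 1 subunit of 35 was called, Psma8, which was higher in KO cells, where 3.23% of all genes tested were higher and 6.26% lower. It had 1678 and 1959 normalised counts in KO and 963 and 1235 in WT mESCs, a difference of 0.73 ± 0.18 (SE) on the log2 scale (1.66-fold, limma adjusted p = 0.0271). The call was lost in 6 of 18 alternatives, including those without WT replicate A, KO replicate A or KO replicate B. At the level of the whole set 32 of 35 changes were positive, with a median of 0.56 for 20S and 0.29 for 19S genes against -0.04 for all genes, and 19 had an unadjusted p under 0.05. The share of all genes with such a p is not given here. The exceptions were Psmd2, Psmd3 and Psmd11. Both KO libraries exceeded both WT libraries for 26 of 35 subunits, 13 in each particle, where 27.3% of all genes did. The count of calls was 17 without WT replicate B and 0 without WT replicate A or either KO replicate, and without WT replicate A the medians were 0.26 for 20S and 0.15 for 19S genes. With equal library totals the only call was Psmd3, which was lower. With a replicate block 21 subunits were called, but the letters A and B were not taken to pair the samples, as the last section says.

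At day 2 no subunit was called between KO and WT cells by limma, none had an unadjusted p under 0.05, and edgeR and DESeq2 called none, where 1.57% of all genes were higher and 3.64% lower. The medians were 0.26 for 20S and 0.08 for 19S genes against 0.02 for all genes. Without WT day 2 replicate A both medians were below 0, at -0.02 and -0.05, and without WT replicate B they were 0.50 and 0.23. With KO replicate A left out the 19S median was 0.02, with KO replicate B left out it was 0.14, and equal library totals gave -0.03. The smallest p was that of Psmb7, given above. Both KO libraries lay above both WT libraries for 5 of 35 subunits and below both for 3, where 23.2% of all genes were above and 24.6% below.

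Whether the stage change differed between genotypes was tested as an interaction. Psma8 had the smallest p of the subunits, and it was not called. Its interaction of KO and stage was -0.93 ± 0.26 (SE, limma adjusted p = 0.128). No subunit was called in this interaction by limma or edgeR, with 2 under an unadjusted p of 0.05, and DESeq2 called Psma8 (adjusted p = 0.0394), where limma called 0.502% of all genes higher and 0.626% lower. Psma8 was also called without WT day 2 replicate A (adjusted p = 0.0240). In the interaction of re-expression and stage no subunit was called by limma, edgeR or DESeq2 and none had an unadjusted p under 0.05, where limma called 0.0326% of all genes higher and 0.0521% lower. The smallest p there was that of Psmc5, an ATPase gene (0.31 ± 0.19 (SE), limma adjusted p = 0.681).

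Re-expression of Proser1 was tested by comparing KO+Rescue with KO cells. In mESCs no subunit was called by limma, edgeR or DESeq2 and none had an unadjusted p under 0.05, where limma called 0.476% of all genes higher and 1.04% lower. Median changes were 0.23 for 20S and 0.04 for 19S genes against 0.03 for all genes, and the smallest p was that of Psmd2, a scaffold of the base, at -0.30 ± 0.16 (SE, limma adjusted p = 0.454). At day 2 again none was called by the 3 tools, with 3 under an unadjusted p of 0.05, where limma called 0.502% of all genes higher and 1.33% lower. The medians were 0.30 for 20S and 0.18 for 19S genes against -0.02 for all genes. Both KO+Rescue libraries exceeded both KO libraries at day 2 for 26 of 35 subunits, 13 in each particle, where 28.7% of all genes did. A fit of these 4 libraries alone called 16 subunits. The share of all genes called in that fit is not given here, so the count cannot be set against it. With equal library totals the 19S median in mESCs was -0.08. The mESC medians rested on single libraries, since they were 0.43 for 20S and 0.12 for 19S genes without KO+Rescue replicate A and 0.03 and 0.0048 without KO+Rescue replicate B, and 0.10 and 0.03 without KO replicate A and 0.35 and 0.09 without KO replicate B. At day 2 the 19S median was 0.11 without KO replicate B. The KO libraries serve here and in the comparison of KO with WT cells.

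KO+Rescue cells were also set against WT cells. In mESCs 20 of 35 subunits were higher in KO+Rescue cells and 1, Psmd3, was lower, where 9.15% of all genes were higher and 9.04% lower. The 20S core had 12 of 15 genes higher and the 19S particle 8 of 20, with medians of 0.70 and 0.29 against -0.06 for all genes. The alpha ring had 6 of 7 genes higher and a median of 1.08, and the other roles had 3 of 4 structural and 2 of 3 catalytic beta subunits, 2 of 6 ATPases, 0 of 3 other base subunits, 4 of 8 lid subunits and 2 of 3 chaperones higher. Psma6 (chr12:55384222-55418459), an alpha ring gene that overlaps a ribosomal pseudogene, had 51241 and 84745 normalised counts in KO+Rescue mESCs, 43628 and 53577 in KO mESCs and 23789 and 38247 in WT mESCs. Its KO+Rescue libraries lay above both WT libraries but differed widely from each other, and the difference was 1.13 ± 0.29 (SE, 2.18-fold, limma adjusted p = 0.0238). Psma3 had 48949 and 90652 in KO+Rescue and 24394 and 38753 in WT mESCs, and Psma5 had 55095 and 88833 in KO+Rescue and 26327 and 41526 in WT mESCs, with differences of 1.12 and 1.08 (limma adjusted p = 0.0247 and 0.0218). Each of these 3 calls was kept in 14 of 18 alternatives. No subunit was called without WT mESC replicate A, and none without KO+Rescue mESC replicate B. Scaled to equal totals, the calls were 7 higher and 4 lower (Psmc5, Psmd2, Psmd3 and Psmd11), and the median of the 19S genes was then -0.04. That median was 0.14 without WT replicate A and 0.46 without WT replicate B.

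At day 2, 4 subunits were higher in KO+Rescue than in WT cells, namely Psmb7, Psmc6, Psmd6 and Psmd14, and Psmd3 was lower, where 3.9% of all genes were higher and 7.2% lower. Psmc6, an ATPase gene (chr14:45329823-45349074), had 29003 and 30495 normalised counts in KO+Rescue cells, 18415 and 21434 in KO cells and 11799 and 18075 in WT cells. The 3 genotypes did not overlap, and KO+Rescue exceeded WT cells by 1.03 ± 0.25 (SE, 2.04-fold, limma adjusted p = 0.0229). The gap from KO+Rescue to KO cells, 0.58, was not called (limma adjusted p = 0.264) and had the smallest p of any subunit in that comparison. Psmd14, the deubiquitinase gene, had 32762 and 37045 in KO+Rescue, 23166 and 25850.4 in KO and 16113 and 24330.4 in WT cells, where the KO values reached into the WT range, and the KO+Rescue difference from WT was 0.82 (limma adjusted p = 0.0439). Psmd3 was lower in KO+Rescue than in WT cells, with log2 changes of -0.62 (limma adjusted p = 0.0309) at day 2 and -0.50 (adjusted p = 0.0487) in mESCs. The mESC call of Psmd3 was kept in only 10 of 18 alternatives, with changes of -0.28 to -0.83 and adjusted p up to 0.37, and was lost with a pseudocount of 0.5, without WT replicate A and without either KO+Rescue replicate. At day 2 the calls were kept in 14 of 18 for Psmd3, 15 for Psmb7, 13 for Psmc6 and 12 for Psmd14. The medians were 0.50 for 20S and 0.19 for 19S genes against -0.03 for all genes, and with equal library totals that of the 19S genes was -0.01. No subunit was called without WT day 2 replicate A or without either KO+Rescue replicate, and 17 were without WT day 2 replicate B. The medians were 0.27 for 20S and 0.07 for 19S genes without WT replicate A, and that of the 19S genes was 0.32 without WT replicate B. The WT libraries serve in this comparison and in that of KO with WT cells.

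The balance between the particles was described with no test. The rule for its members used no measured value, but it was chosen with earlier results of these data known. The summed normalised counts of the 20S genes over those of the 19S genes were 1.15 ± 0.0444 in KO+Rescue, 1.03 ± 0.0501 in KO and 0.939 ± 0.101 in WT cells at day 2, and 1.30 ± 0.217 in KO+Rescue, 1.10 ± 0.0808 in KO and 0.938 ± 0.100 in WT mESCs (SD, n = 2). This ratio does not depend on the scaling of libraries. The 20S genes took 0.805% ± 0.0363, 0.677% ± 0.0185 and 0.624% ± 0.102 of all reads in KO+Rescue, KO and WT cells at day 2, and 0.949% ± 0.128, 0.831% ± 0.0535 and 0.675% ± 0.108 in their mESCs. The 19S genes took 0.699%, 0.659% and 0.663% at day 2 and 0.733%, 0.756% and 0.717% in mESCs, in the same order of genotypes. The ratio ran from 0.867 in WT mESC replicate A to 1.45 in KO+Rescue mESC replicate B, and the WT replicates had 0.867 and 1.01 in mESCs, a gap close to that between the KO and WT means. The median log2 change of 20S genes exceeded that of 19S genes by 0.12 to 0.41 in the 6 genotype comparisons and was lower by 0.08 to 0.33 in the 3 stage comparisons. The particles also differ in coding length, with medians of 744 bases for 20S and 1236 for 19S genes. Between replicates (B minus A) the 20S median exceeded the 19S median in every group as well, by most in KO+Rescue mESCs (0.43 against 0.13). The part of coding length in the contrast of the particles was not tested.

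**Figure D5:**
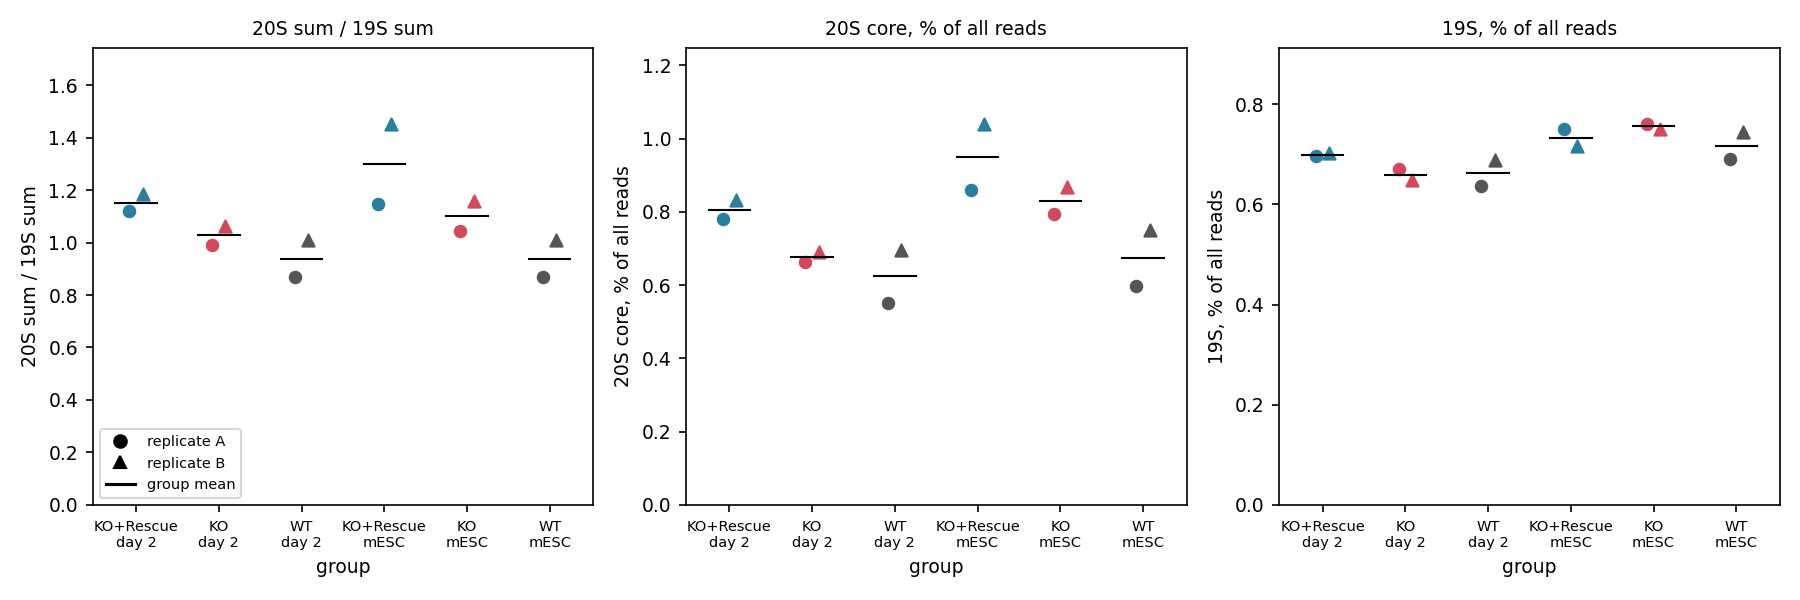
The ratio of summed 20S to summed 19S normalised counts, and the share of all reads held by 20S and by 19S genes in percent, for each library by group (circles for A, triangles for B, bars for the mean of each group, axes from 0). The group means of the ratio and of the 20S share step down across KO+Rescue, KO and WT at each stage, while the 19S share spans only 0.636% to 0.760%. At day 2 the libraries of KO and WT cells overlap. WT replicate B has a 20S share of 0.696%, above both KO libraries (0.664% and 0.690%), and a ratio of 1.01, above KO replicate A (0.991).

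Replicates of a group differed too. At day 2, replicate B exceeded replicate A for 27 of 35 subunits in KO+Rescue, 13 in KO and 32 in WT cells, and in mESCs for 29, 33 and 33. The median of these log2 differences for 20S genes was 0.13, 0.07 and 0.51 in KO+Rescue, KO and WT cells at day 2 and 0.43, 0.26 and 0.44 in mESCs. For 19S genes it was 0.09, -0.08 and 0.31 at day 2 and 0.13, 0.11 and 0.32 in mESCs. Coding length moved with both. Across the 35 genes, which are not independent replicates, Pearson's r of the change with log coding length was -0.66 to -0.37 in the 6 genotype comparisons, -0.72 to -0.34 in the 6 differences between replicates and 0.21 to 0.49 in the 3 stage comparisons. With GC content r was -0.47 to -0.30, -0.68 to 0.12 and 0.20 to 0.30. The share of ribosomal protein genes, which are short, was lowest and highest in the libraries with the lowest and highest subunit shares. The part of transcript length, GC content and ribosomal share in the genotype differences was not tested beyond the adjusted fits. After adjustment for coding length limma called 12 subunits in KO+Rescue against WT cells at day 2 (5 in the main fit), 3 in KO against WT mESCs (1) and 19 in day 2 against mESC in WT cells (8). In KO+Rescue against WT mESCs (21) the count fell to 18, and to 19 with transcript length adjusted. With GC content adjusted it fell to 22 in day 2 against mESC in KO cells (26) and to 4 in KO+Rescue against WT at day 2 (5). It rose to 12 in day 2 against mESC in WT cells (8) and to 20 in KO+Rescue cells (18).

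The promoter table held windows for 28 of the 35 genes, 11 of the 20S core and 17 of the 19S particle, and for 27025 genes in all. Motifs were searched on both strands, and a match is a description of letters and not a binding site. The ETS motif CCGGAAG was in none of the 11 windows of 20S genes and in 9 of the 17 of 19S genes (Psmc1, Psmc2, Psmc6, Psmd2, Psmd4, Psmd6, Psmd11, Psmd12 and Psmd13), against 9.12% of all windows. The GC box GGGCGG was in 5 windows of 20S and 13 of 19S genes, against 35.9% of all. The CCAAT box was in 6 and 5, against 37.9%. The antioxidant response element core TGACNNNGC was in 5 of the 28 windows (Psmb5, Psmb6, Psmc6, Psmd9 and Psmd12), or 17.9%, against 12.5% of all windows. The CRE motif TGACGTCA was in none of the 28 and in 1.88% of all, and the NRF-1 motif GCGCATGC was in 2 (Psma2 and Psmc5) and in 2.80% of all. In the windows printed above, Psma1 has CCAAT matches 126 and 98 bases and GC boxes 68 and 49 bases before the start, Psmb3 has CCAAT matches at 85 and 43, Psmc4 GC boxes at 99 and 73, and Psmd12 an antioxidant response element core at 247, GC boxes at 169 and 153 and an ETS motif at 17. No motif of the 6 was in all 4 windows.

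Other genes of the proteasome system were taken from lists by role. Of the inducible beta subunits, Psmb8 and Psmb9 were higher at day 2 in every genotype, all called by limma. The log2 changes in KO+Rescue, KO and WT cells were 5.61, 2.88 and 4.34 for Psmb8 and 1.90, 2.25 and 3.12 for Psmb9. Psmb10 was called higher at day 2 in WT cells (0.67), and its changes of -0.45 in KO+Rescue and -0.16 in KO cells were not called. Psmb8 had 50.5 and 45.1 normalised counts in KO+Rescue, 29.5 and 27.7 in KO and 383 and 539 in WT cells at day 2, and was lower in KO+Rescue and KO than in WT cells, with log2 changes of -3.22 and -3.94 (limma adjusted p = 0.000288 and 6.75e-05). In mESCs it was listed at 0 in both KO+Rescue libraries, where 3 reads would give 3.14 and 5.34, and had 3.36 and 2.7 in KO and 22.5 and 20.4 in WT cells. Psmb10 was lower in KO than in WT cells at day 2 (log2 change -1.03, limma adjusted p = 0.0109), and Psmb11, the thymus subunit, averaged 1.54 and was not tested. Of the 5 activator and inhibitor genes, Psme4, which encodes PA200, was higher at day 2 in every genotype (0.77, 0.80 and 0.51 in KO+Rescue, KO and WT cells), and the PA28 genes Psme1 and Psme2 were lower at day 2 in KO+Rescue (-0.94 and -0.95) and KO cells (-0.93 and -0.93). In WT cells their changes of -0.12 and 0.54 were not called (limma adjusted p = 0.602 and 0.0868), and Psme2 had 4558 and 7261 normalised counts at day 2 and 3237 and 4868 in mESCs.

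Of the 5 chaperones of 20S assembly, Psmg1 was higher in KO+Rescue and KO than in WT cells at both stages, by 0.82 and 0.86 in mESCs and 0.77 and 0.79 at day 2 (limma adjusted p of 0.00912 to 0.0181). Its libraries held 10844 and 14056 normalised counts in KO+Rescue, 11861 and 13676 in KO and 5964 and 8238 in WT mESCs. Pomp, which encodes the maturation protein of the core, was lower at day 2 in KO+Rescue (-0.55) and KO cells (-0.61) and higher in KO+Rescue than in WT mESCs (0.78). Of 6 genes of 19S subunits and partners outside the symbol rule, AI314180, a RefSeq synonym of Ecpas, the proteasome adaptor gene, was higher at day 2 by 1.80, 1.30 and 1.57 in KO+Rescue, KO and WT cells, the opposite direction to the subunits. Of 7 regulators of proteasome genes, 4 were higher at day 2 in KO+Rescue, 4 in KO and 3 in WT cells, where 29.2%, 31.4% and 26.6% of all genes were. The higher genes were Bach1, Mafg and Mafk in each genotype, and Nfe2l1, the activator of proteasome genes, by 0.38 in KO+Rescue and 0.49 in KO cells (limma adjusted p = 0.0237 and 0.00561). The regulator Nfe2l2 was lower in KO+Rescue cells (-0.47, limma adjusted p = 0.00872), and its changes of -0.30 in KO and -0.22 in WT cells were not called. Of the ubiquitin and shuttle genes, Ubqln2, a shuttle for ubiquitinated proteins, was higher at day 2 in each genotype (1.07, 1.23 and 0.76 in KO+Rescue, KO and WT cells), and the ubiquitin gene Ubb was lower in KO+Rescue (-0.78) and KO cells (-0.58).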

How the data were processed

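Per the study's methods, the authors trimmed the reads of directional RNA libraries with Trimmomatic, aligned them with STAR to mm10, removed reads of the Y chromosome, counted read pairs per RefSeq gene with featureCounts and divided the counts by DESeq2 size factors. Versions and the strand setting are not given in the sources used here. The deposited values are these size-factor-normalised counts, a signal per gene and library. Column codes 39 and 39R were read as the KO and KO+Rescue lines, which no label states, and letters A and B are not tied to the labels' replicate numbers. All 237534 values above 0 (100%) were whole multiples of the smallest value in their library (tolerance 0.001), so that whole reads were recovered. Every per-sample column was used.

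Genes with a mean of at least 10 (15341 of 35976, where 10334 were at 0 throughout) were tested in R 4.3.3 with limma 3.58.1 on log2(normalised count + 1), with 6 group means, a trended prior, two-sided tests of 11 contrasts and Benjamini-Hochberg adjustment per contrast. Fold changes are on that scale, which understates changes of low genes. The step was tested on simulated data. Alternatives were edgeR 4.0.16 and DESeq2 1.42.0 on recovered reads, other scalings, pseudocounts and filters, fewer groups, a replicate block, single libraries left out, and fits adjusted for GC content or length. edgeR called 159 to 9257 genes in the 9 comparisons other than the interactions. Levels per kilobase used lengths of GENCODE vM39 canonical transcripts, and promoters and positions came from RefSeq GRCm38.p6. The depth of 38634668 to 66450803 read pairs leaves counting error small, and 3 reads correspond to 1.82 to 5.34 normalised counts. Limits of this kind cover counting error only.

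The members, lists and tests were chosen with earlier results of these data known. Values in every library were given, by rule, for up to 3 called members with the largest change in each direction and comparison, for the member with the smallest p where none was called, for the catalytic subunits, for the members with the highest and lowest mean per kilobase of transcript and for Proser1, and could be given for members called with stage in every genotype. Of the related lists, the rule named at most 3 called genes per list and comparison. Nfe2l1 and Nfe2l2 were named after their values were seen. Counts over the list of ubiquitin and shuttle genes are not reported here.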

Additional observations from a re-analysis of the deposited data

How the results depend on the processing

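Counts of called subunits depended on single libraries and on the setting, and the causes of these shifts were not tested. Directions could shift too. For KO against WT at day 2, 18 of 35 subunits kept their sign without WT day 2 replicate A. For day 2 against mESC in KO+Rescue cells, 24 did with equal library totals. With a pseudocount of 0.5 all 35 did in both comparisons. Of 402 medians of 20S or 19S genes under alternatives, 13 changed sign. The called changes of named subunits were picked among the largest per comparison, so they do not stand for all subunits. Of 19 called changes of named subunits none reversed under any alternative, edgeR, DESeq2, TMM scaling and a minimum mean of 50 each kept 19, and the run without a filter, which tests more genes, kept 11. For KO against WT mESCs (1 called) the count was 0 with no filter, 3 with DESeq2 and 3 with coding length adjusted. For KO+Rescue against KO at day 2 (0 called) it was 16 in a fit of these groups alone. Shares of all genes called are given for the main fit only, so counts under alternatives cannot be set against them. For KO+Rescue against WT mESCs (21 called) it was 11 with equal library totals, 3 with no filter, 19 with transcript length adjusted and 18 with coding length adjusted. For KO+Rescue against WT at day 2 (5 called) it was 8 with TMM scaling, edgeR or DESeq2, 1 with no filter, 9 with only these groups, 11 with transcript length adjusted and 12 with coding length adjusted. For day 2 against mESC in WT cells (8 called) it was 16 with TMM scaling, 4 with equal totals, 13 with edgeR or DESeq2, 2 with only these groups, 15 with transcript length adjusted and 19 with coding length adjusted. With equal totals it was 9 in KO cells (26 called) and 8 in KO+Rescue cells (18 called). DESeq2 called 1, Psma8, in the interaction of KO and stage (0 called).

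Leaving out 1 library at a time gave 0 to 17 calls for KO against WT mESCs, 0 to 24 for KO+Rescue against WT mESCs, 0 to 17 for KO+Rescue against WT at day 2, 2 to 23 for day 2 against mESC in WT, 8 to 22 in KO and 8 to 20 in KO+Rescue cells, and 0 to 1 for the interaction of KO and stage. A lone library was assumed to vary like the other groups. The fits adjusted for GC content or length, and those without both WT A libraries, were chosen after seeing the data. Without both WT A libraries the count was 0 for KO against WT mESCs, 0 for KO+Rescue against WT mESCs, 2 for KO+Rescue against WT at day 2 and 1 for the interaction.

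Over 15 pairs of groups the deviations of libraries with the same letter correlated at -0.048 to 0.413, over 0.1 in 6. These 6 were all 3 pairs of mESC groups (0.125 to 0.171) and the 3 pairs of an mESC group with WT day 2. The highest value, 0.413, was that of WT mESC with WT day 2. Since the other 9 were under 0.1 and no label ties the letters to samples, the letters were not taken to pair the samples. A replicate block moved the counts to 21 for KO against WT mESCs, 4 for KO+Rescue against KO at day 2, 17 for KO+Rescue against WT at day 2, 26 for day 2 against mESC in WT cells and 1 for the interaction of KO and stage. It also moved them to 25 for KO+Rescue against WT mESCs, and for day 2 against mESC to 32 in KO and 24 in KO+Rescue cells.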
